A study of Rattus norvegicus with 4 samples.

Results

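The comparison described here sets the RNA of neonatal rat cardiomyocytes that received a miR-25 mimic against the RNA of the same kind of culture that received a control mimic. A gene entered it when its RPKM was above 1.0 in both libraries, and 11198 of the 15731 listed genes did. RPKM is the read number of a gene divided by its length and by the size of the library. Rat hearts were taken on postnatal day 1 according to one protocol of the labels and on day 0 according to another, and ventricular cells were dissociated and preplated to deplete other cells. The cultures were transfected with Lipofectamine RNAiMAX and a synthetic mimic of hsa-miR-25-3p or, for the control, of cel-miR-67, a worm miRNA. Mimics of hsa-miR-106b-5p and hsa-miR-93-5p were given to the other 2 cultures of the series. The dose is 25 nM in one source and 25 mM in another, and total RNA was taken 72 h after transfection according to the labels and methods, while a drawing of the workflow gives a shorter time. Each mimic gave 1 library, so no difference below has a replicate check and none has a p-value. All ratios compare 2 libraries, and the intervals cover counting error only.

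A miRNA lowers the amount or the translation of mRNAs whose 3′ ends pair with its seed, the stretch of bases 2 to 8 from its 5′ end. miR-25, miR-93 and miR-106b are made from 1 transcript, within an intron of Mcm7, but miR-25 does not share the seed of miR-93 and miR-106b. In the heart miR-25 is best known for acting on Atp2a2, the calcium pump SERCA2a. Cardiomyocytes around birth still divide, and they mature by raising adult sarcomere proteins, calcium handling proteins and mitochondria. The mature sequences below show which miRNAs carry the seed of miR-25 and which do not. They are the rat entries of RefSeq (GRCr8 build), whereas the mimics are labelled human, and the seed is in capitals.
rno-miR-25-3p: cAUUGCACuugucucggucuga
rno-miR-92a-3p: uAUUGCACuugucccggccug
rno-miR-92b-3p: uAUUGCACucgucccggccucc
rno-miR-32-5p: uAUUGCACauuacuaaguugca
rno-miR-363-3p: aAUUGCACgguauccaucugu
rno-miR-93-5p: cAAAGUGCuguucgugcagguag
rno-miR-106b-5p: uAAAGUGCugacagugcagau
The first 5 share the seed AUUGCAC, and miR-93 and miR-106b share AAAGUGC. In the GRCr8 build all 3 members of the cluster lie on the minus strand of chromosome 12, miR-25 at chr12:22156652-22156673, miR-93 at chr12:22156894-22156916 and miR-106b at chr12:22157103-22157123. Mcm7, the host gene and a subunit of the replicative helicase, was itself lower with the miR-25 mimic. Its RPKM was 23.2 in the control library, 9.87 with miR-25, 23.4 after miR-106b and 19.1 after miR-93.

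Genes past a ratio of 1.3-fold were counted as higher or lower with miR-25. Of the genes tested 2166 were higher, or 19.3%, and 2532 were lower, or 22.6%, and these percentages are the background for every list below. The median log2 ratio over all tested genes was -0.01, with quartiles of -0.33 and 0.29. Past 2-fold, 360 genes were higher and 561 lower. Past 4-fold, 14 were higher and 33 lower. The split between the directions depends on which scaling is used. With the deposited values 53.9% of the genes past the cutoff were lower. The share was 52.2% with centring on the median tested gene and 53.4% with scaling by a trimmed mean of the log2 ratios. It was 35.2% when both libraries were set to the same number of reads on listed genes, which adds 0.15 to every log2 ratio. Reads on listed genes numbered 16460108 with miR-25 and 15175185 in the control library. A tested gene had a median of 541.5 and 466 reads in these libraries, which gave a median half-width of 0.18 for the 95% interval of its log2 ratio. At the edge of the selection, PCOLCE2 was kept at 1.0001 RPKM with miR-25 and 1.89 in the control library, while Ahcyl2 was left out at 1.78 and 0.99957.

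The cultures carried the markers of heart muscle in all libraries. All 8 cardiomyocyte markers were above 1 RPKM, and their summed RPKM was 11651 in the control library, 6206 with miR-25, 11740 after miR-106b and 9528 after miR-93. The 8 fibroblast markers summed to 821, 317, 637 and 743 RPKM in the same order, so both sums were lowest with miR-25. Abundant genes weigh most in such sums, Myl2 in the first and Col3a1 and Col1a2 in the second. Col3a1 was at 327 RPKM in the control library and 130 with miR-25, and Col1a2 at 284 and 77.6. Past 1.3-fold, 7 of the 8 markers in each class were lower with miR-25 and 1 was higher. Cdh5, Vwf, Tie1 and Emcn of the endothelial list, and Ptprc, Cd163 and Adgre1 of the macrophage list, were at or below 1 RPKM in both the control and the miR-25 library. Other members were detected, with 3 endothelial markers above 1 RPKM in both libraries, and 6 macrophage markers in the control library and 5 with miR-25. The endothelial markers summed to 8.56 RPKM in the control library and 5.75 with miR-25, and the macrophage markers to 20.7 and 14. The smooth muscle and pericyte markers summed to 43.7 RPKM in the control library and 58.4 with miR-25, and the epicardial markers to 26.8 and 39.3. Schwann cell markers summed to 1.77 and 1.02, and erythroid markers to 3.44 and 2.38. Single markers departed from the sums. Nkx2-5, a cardiomyocyte transcription factor, was 1.84-fold higher with miR-25, and Lum, a fibroblast proteoglycan, 1.83-fold higher.

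**Figure D1:**
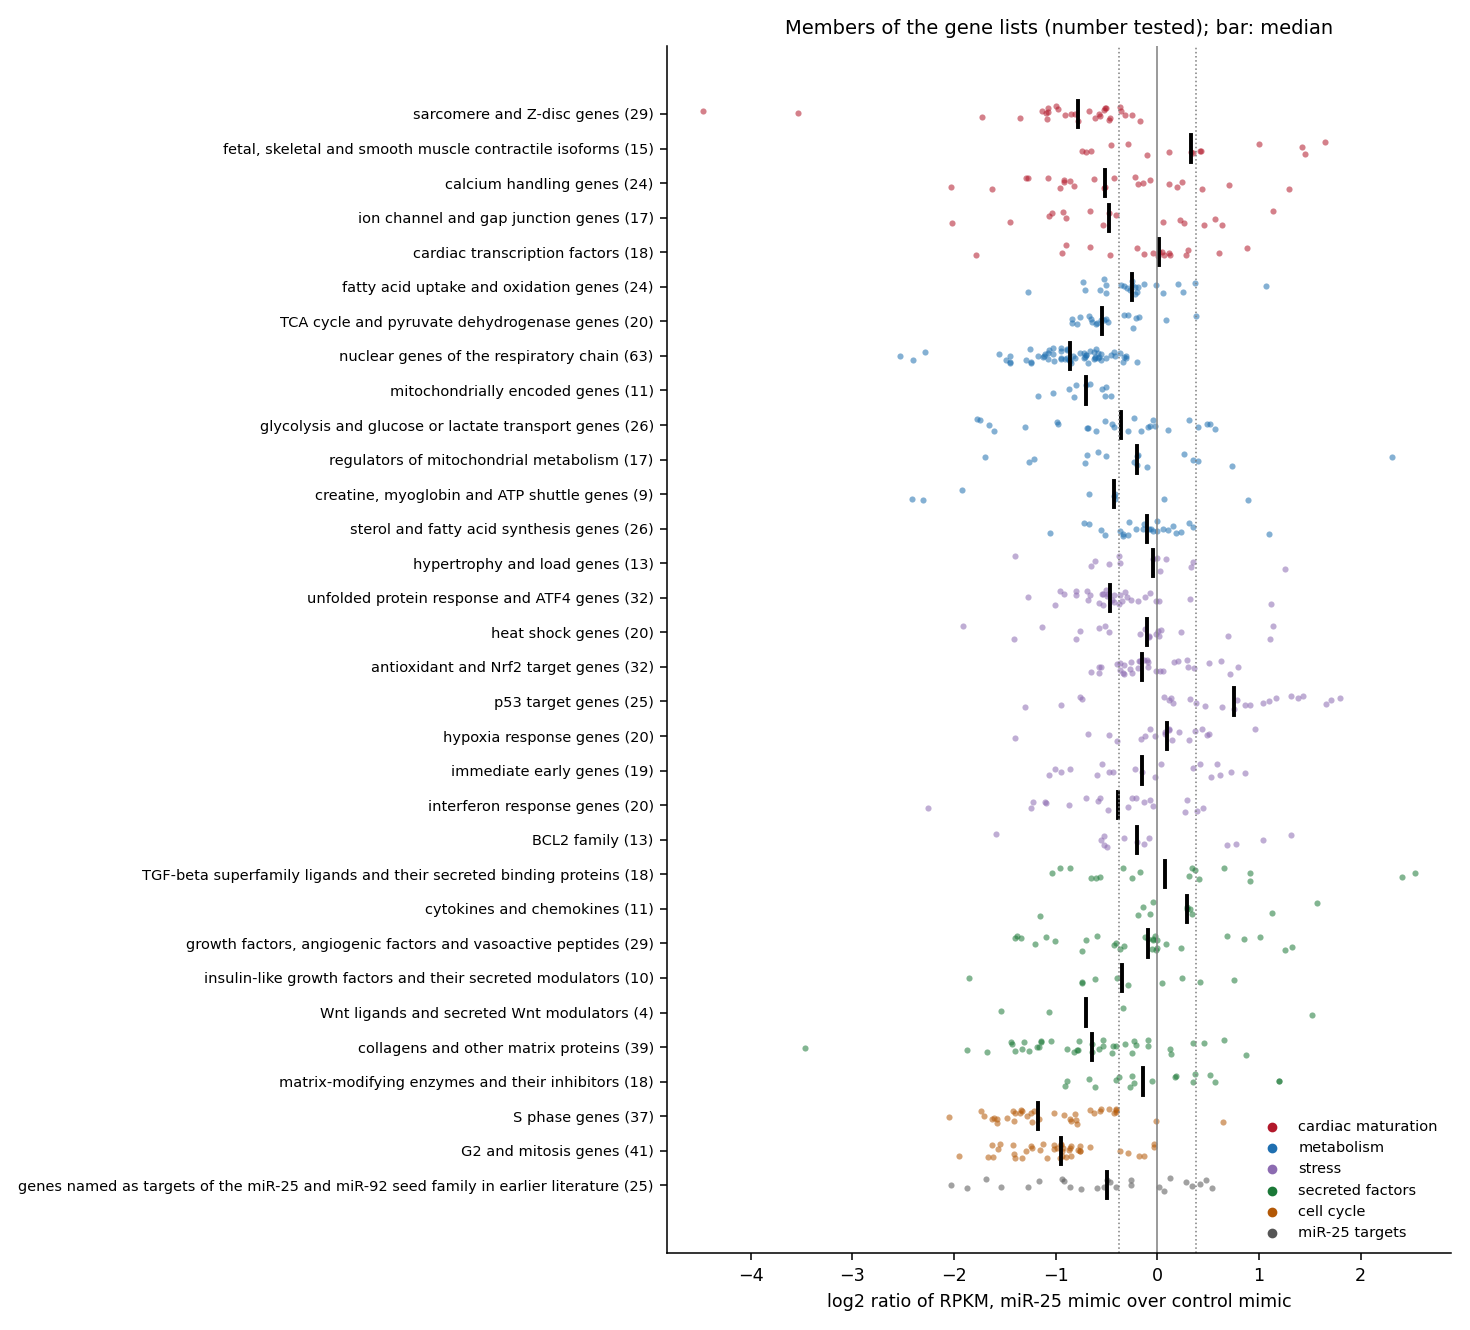
Log2 ratio of RPKM, miR-25 mimic over control mimic, for each tested member of the gene lists (1 point a gene, number of tested genes in brackets, black bars the list medians, dotted lines the 1.3-fold cutoff). The sarcomere, respiratory chain, mitochondrially encoded, S phase and G2 and mitosis lists lie almost wholly to the left, and the p53 target list has its median at 0.75.

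The genes of the adult contractile apparatus were lower with miR-25. Of 29 sarcomere and Z-disc genes tested, 24 were lower and 0 higher, with a median log2 ratio of -0.79 against -0.01 over all genes. Abundant genes as a whole were lower too, with a median of -0.38 over the 514 genes above 100 RPKM in the control library. The part of level in the median of the sarcomere and Z-disc list was not tested. The sarcomere and Z-disc genes had medians of -0.25 after miR-106b and -0.45 after miR-93 over the shared control library. In bulk RNA, fewer cells of a type and less RNA per cell cannot be told apart. Of the sarcomere and Z-disc genes, 5 are also in the cardiomyocyte marker list, so the lower summed markers above belong to the same values.

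Tnni3, the adult cardiac troponin I, was the gene with the lowest ratio of all 11198. Its RPKM was 351 in the control library, 15.9 with miR-25, 543 after miR-106b and 495 after miR-93. The miR-25 library thus stood apart from the other 3, and the ratio to control was 22.1-fold lower, or -4.47 on the log2 scale (95% interval -4.63 to -4.31), from 347 and 6391 reads. Tnni1, the fetal troponin I that Tnni3 replaces after birth, was 413 in the control library and 247 with miR-25, 1.67-fold lower. Myom2, which encodes the M-band protein myomesin 2, was at 34.0 in the control library, 2.94 with miR-25, 13.4 after miR-106b and 23.8 after miR-93, and its log2 ratio was -3.53 (-3.69 to -3.38). All mimics had it below control, miR-25 the furthest. Smyd1, a methyltransferase needed for myofibril assembly, had a log2 ratio of -1.72.

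The most abundant sarcomere transcripts were lower by smaller factors. Myl2, the ventricular regulatory light chain, had 6838 RPKM in the control library and 3250 with miR-25, a log2 ratio of -1.07. Myh6, the alpha myosin heavy chain that dominates in the adult rat ventricle, was at 1307 and 663, and Myh7, the fetal beta chain, at 1226 and 778. Their log2 ratios were -0.98 and -0.66, so both myosin chains were lower with miR-25. Tnnt2, cardiac troponin T, and Actc1, cardiac alpha-actin, were at log2 ratios of -0.48 and -0.51. The 5 sarcomere genes between the cutoffs were Xirp2, Synpo2l, Myoz2, Tpm1 and Tmod1, with log2 ratios from -0.37 to -0.17. For each of the 29 genes the counting interval lay below 0.

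Several smooth muscle contractile genes were higher with miR-25. Among the 15 tested fetal, skeletal and smooth muscle isoforms 6 were higher and 4 lower, with a median of 0.33. Cnn1, the actin-binding protein calponin 1, had 88.8 RPKM in the control library, 278 with miR-25, 128 after miR-106b and 45.6 after miR-93, and a log2 ratio of 1.65 (1.59 to 1.71) with miR-25. Tagln, transgelin, was at 478, 1306, 422 and 388, and Acta2, smooth muscle alpha-actin, at 164, 440.2, 128 and 139 in the same order. For both genes the miR-25 library was the highest of the 4 and the other mimics were below control. Myh11, smooth muscle myosin, was 1.99-fold higher, while Myl9 and Lmod1, also of smooth muscle, were at log2 ratios of -0.29 and -0.10. Acta2, Tagln and Cnn1 are also active in fetal heart muscle and in activated fibroblasts, and of the 5 tested markers of smooth muscle cells and pericytes 3 were higher. Beside Myh11 these were Rgs5 at a log2 ratio of 1.58 and Pdgfrb at 0.49, with Notch3 at -0.02 and Cspg4 at -0.82. The part of such cells in these values was not tested. Acta1, the skeletal alpha-actin of the fetal program, was at a log2 ratio of 0.33, under the cutoff, and Myl7, the atrial light chain, at -0.70.

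**Figure D2:**
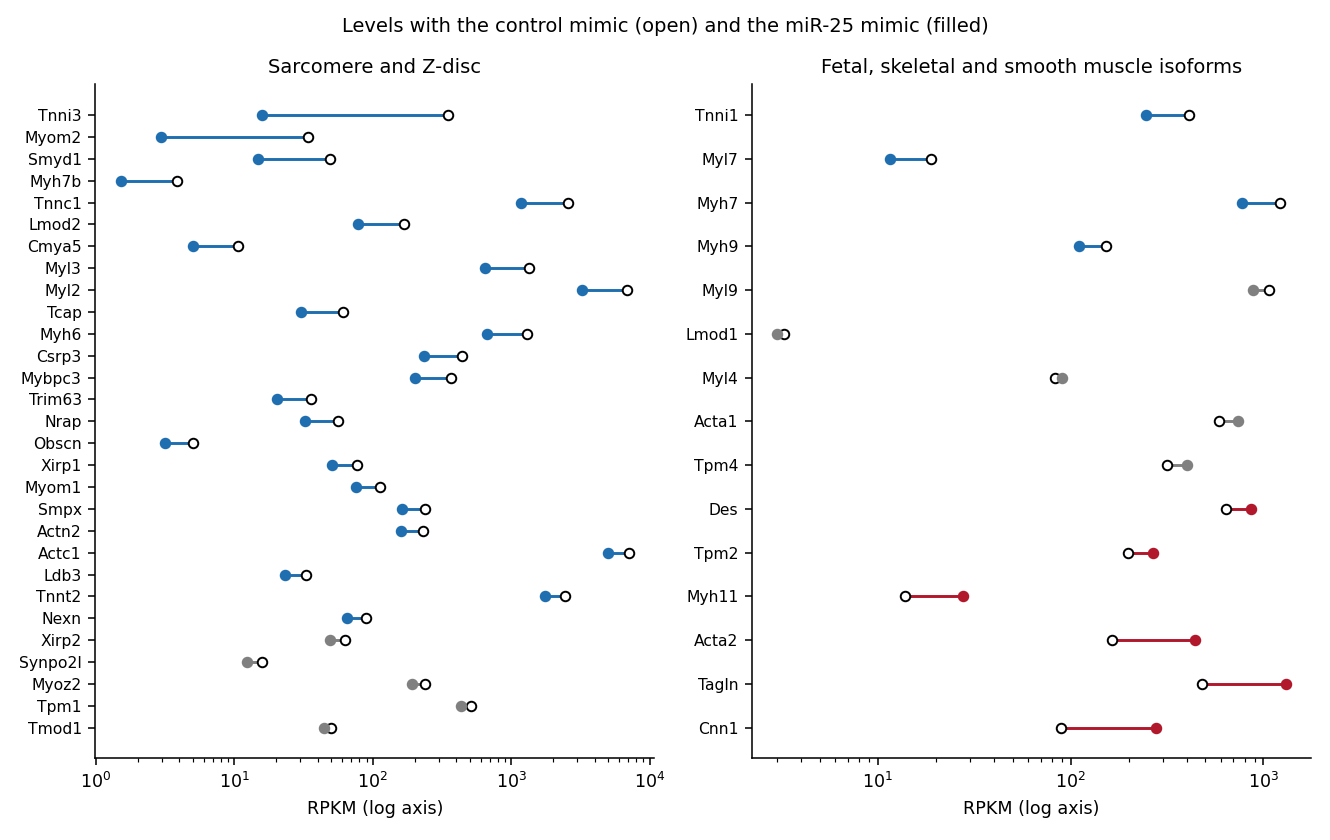
RPKM on a log axis of each tested sarcomere and Z-disc gene (left) and each tested fetal, skeletal or smooth muscle isoform (right) in the control library (open circles) and the miR-25 library (filled circles, blue for lower and red for higher past 1.3-fold, grey between). All 29 sarcomere genes have the filled circle to the left, and Cnn1, Tagln, Acta2 and Myh11 have it to the right.

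Calcium handling genes were lower in part. Of 24 tested, 14 were lower and 3 higher, with a median of -0.52. Atp2a2 had 422 RPKM in the control library, 103 with miR-25, 434 after miR-106b and 565 after miR-93. It was the lowest tested member, 4.09-fold lower than control from 19968 and 67986 reads (log2 ratio -2.03, -2.06 to -2.01), and miR-25 was the 1 mimic with a value below control. Pln, phospholamban, which inhibits that pump, was at a log2 ratio of -0.42. Srl, sarcalumenin, Ryr2, the calcium release channel, and Casq2, calsequestrin 2, had log2 ratios of -1.62, -1.29 and -1.07, and Casq2 was at -1.08 after miR-93. Slc8a1, the sodium-calcium exchanger, was at a log2 ratio of 0.20. Higher were Orai1 at a log2 ratio of 0.71, Bin1 at 0.44 and Fkbp1b at 1.29, the last with 39 control reads and an interval of 0.76 to 1.86. Casq1, the skeletal muscle form of calsequestrin and no member of the list, was among the 12 highest genes with RPKM above 10 in both libraries. It was at 127 in the control library, 373 with miR-25, 167 after miR-106b and 49.8 after miR-93.

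Of 17 ion channel, sodium pump and gap junction genes tested, 10 were lower and 4 higher, with a median of -0.48. Cacna1g, a T-type calcium channel, was at a log2 ratio of -1.45. Hcn4, the pacemaker channel, and Kcnh2, a repolarising potassium channel, were at log2 ratios of -1.07 and -1.04. Among the higher members were Kcne1 at a log2 ratio of 1.14 from 20 control reads and the sodium pump subunit Atp1b1 at 0.63. Gja1, the gap junction protein connexin 43, was at a log2 ratio of 0.06. Scn4b failed the filter because of its low level with miR-25. Its RPKM was 1.87 in the control library, 0.0773 with miR-25, 7.43 after miR-106b and 12.4 after miR-93.

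Cardiac transcription factors showed no common direction. Of 18 tested, 5 were lower and 2 higher, 27.8% and 11.1% against backgrounds of 22.6% and 19.3%, and the median was 0.01. Irx4, a ventricle-restricted homeobox factor, had the lowest value, with 8.47 RPKM in the control library, 2.46 with miR-25, 13.1 after miR-106b and 17.2 after miR-93. Hand2, Hopx and Tbx20 were at log2 ratios of -0.94, -0.90 and -0.66. Nkx2-5 was the highest, at 29.2 in the control library and 53.7 with miR-25, and Myocd, the co-activator of smooth and cardiac muscle genes, was at a log2 ratio of 0.61. Gata4 and Srf, the partner of Myocd, lay between the cutoffs at log2 ratios of 0.12 and 0.02, as did Mef2c, Tbx5 and Tead1.

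Mitochondrial respiration was the metabolic function with the most uniform difference. All 63 nuclear genes of the respiratory chain and ATP synthase that could be tested had a ratio below 1, 57 were lower past the cutoff, and the median was -0.86. A further 12 of the 75 listed genes could not be used, because the symbol matched no row or more than 1. By complex, 25 of 31 genes of complex I were lower with a median of -0.62, 8 of 8 of complex III with -0.90, 10 of 10 of complex IV with -0.98 and 14 of 14 of ATP synthase with -0.98. With the other mimics the list medians were 0.09 for miR-106b and -0.06 for miR-93. The 11 mitochondrially encoded genes were all lower, with a median of -0.70, from log2 ratios of -1.18 for Mt-nd3 to -0.46 for Mt-atp8, against -0.11 after miR-106b and -0.24 after miR-93. Mt-co1, the most abundant of them, had 18554 RPKM in the control library, 12965 with miR-25, 13704 after miR-106b and 13754 after miR-93, so all 3 mimics were below control for this gene.

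The lowest respiratory genes included muscle-restricted isoforms. Cox6a2, the heart and skeletal muscle form of a cytochrome c oxidase subunit, had 515 RPKM in the control library, 88.8 with miR-25, 324 after miR-106b and 248 after miR-93, and Cox6a1, its widely expressed form, had 289 and 179.7 in the first 2. Their log2 ratios with miR-25 were -2.53 (-2.63 to -2.44) and -0.69 (-0.76 to -0.61), so the 2 isoforms differed by more than counting error. Cox8b, another muscle isoform, was at a log2 ratio of -2.28, and Cox8a, its widely expressed form, at -1.02. Ndufa5, a complex I subunit found in all tissues, was at 107 in the control library, 20.1 with miR-25, 92.5 after miR-106b and 80.1 after miR-93. Atp5b, the catalytic beta subunit of ATP synthase and the most abundant of the nuclear genes, was at a log2 ratio of -0.72.

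The ratio also varied with gene length. The list had a median length of 705 bases, against 2318 over all tested genes. The 511 tested genes under 500 bases outside the list had a median log2 ratio of -0.32 with miR-25, and the 965 genes of 500 to 1000 bases a median of -0.08. The respiratory chain genes of the same lengths had medians of -1.24 over 17 genes and -0.76 over 28 genes. Among the 18 respiratory chain genes of 1000 bases or longer, 17 were lower, with a median of -0.72. It varied with the level of a gene too, with a median of -0.38 over the 514 genes above 100 RPKM in the control library and 0.07 over the 6218 genes under 10 RPKM. The part of length and level in the list's median was not tested.

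**Figure D3:**
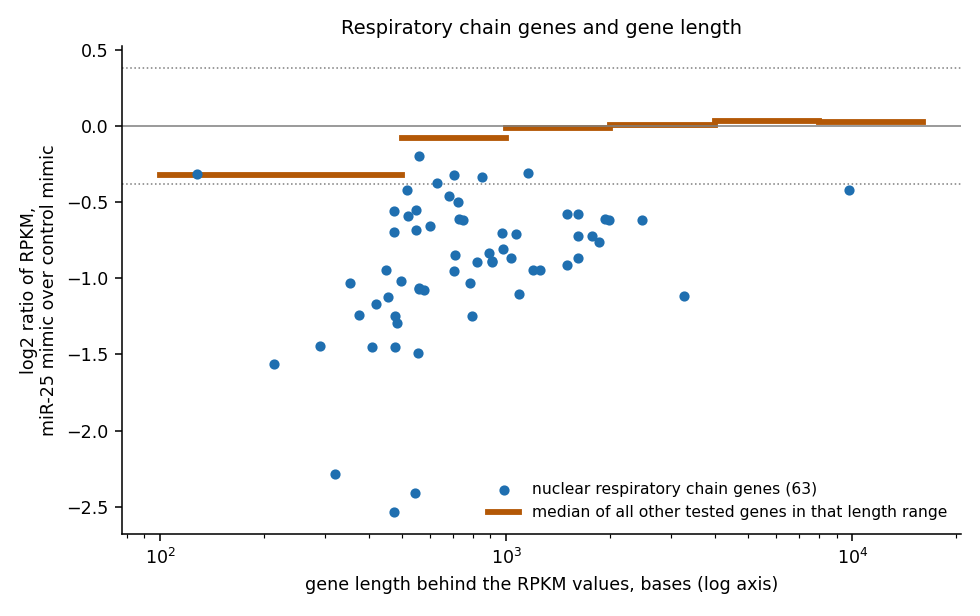
Log2 ratio of RPKM, miR-25 mimic over control mimic, against gene length on a log axis for the 63 respiratory chain genes (points), with the median of all other tested genes in 6 length ranges (bars) and the 1.3-fold cutoff (dotted lines). All points but Ndufc1 lie below the bar of their range, and the bar itself is at -0.32 under 500 bases.

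Genes of the TCA cycle, which feeds the respiratory chain, were lower by smaller factors. Of 20 TCA cycle and pyruvate dehydrogenase genes, 13 were lower and 0 higher, with a median of -0.54. Fh, fumarase, was at a log2 ratio of -0.84, Cs, citrate synthase, was at -0.21, and Suclg2 was highest at 0.38. Fatty acid uptake and oxidation genes were lower in 7 of 24 cases, 29.2% against a background of 22.6%, with a median of -0.25. Lpl, lipoprotein lipase, was the lowest of these at a log2 ratio of -1.27, Fabp3, the heart fatty acid binding protein, was at -0.71, and Cpt1b, the muscle carnitine palmitoyltransferase that admits long-chain fatty acids to mitochondria, at -0.35. G0s2, an inhibitor of triglyceride lipase and no member of these lists, was the second lowest gene with RPKM above 10 in both libraries. It had 109 RPKM in the control library, 17.4 with miR-25, 60.7 after miR-106b and 59.0 after miR-93, so all mimics were below control and miR-25 the furthest.

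Genes of the phosphocreatine shuttle and of oxygen storage were mostly lower. Ckm, muscle creatine kinase, had 149.9 RPKM in the control library, 28.2 with miR-25, 142 after miR-106b and 221 after miR-93, a log2 ratio of -2.41 (-2.50 to -2.31). Mb, myoglobin, had 252, 51.2, 298 and 256 in the same order, a log2 ratio of -2.30 (-2.39 to -2.21). The miR-25 library was the low one of the 4 for both. Of 9 genes of this list 7 were lower, and Ucp2, a mitochondrial carrier, was the 1 higher gene at a log2 ratio of 0.89. Art3, an ADP-ribosyltransferase family member found in muscle, was also among the 12 lowest genes, at a log2 ratio of -2.49.

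Glycolysis and transport genes were split by member. Of 26 tested, 13 were lower and 4 higher, with a median of -0.35. Pgam1, a phosphoglycerate mutase, and Slc16a1, a monocarboxylate transporter, were lowest at log2 ratios of -1.77 and -1.74. Slc2a4, the insulin-responsive glucose transporter of adult muscle, was at a log2 ratio of -0.98, and Mpc1, which carries pyruvate into mitochondria, at -1.60. The higher members were Slc2a3 at a log2 ratio of 0.57, Slc16a3, the lactate exporter, at 0.51, Hk2 at 0.49 and Pfkl at 0.40. Gapdh, Ldha, Pgk1 and Aldoa, the abundant enzymes of the pathway, were between log2 ratios of -0.23 and -0.04. Eno2, the neuronal enolase and no member of the list, was among the 12 highest genes at a log2 ratio of 1.60, while Eno1 and Eno3, the widely expressed and the muscle form, were at -0.09 and -0.69.

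Regulators of mitochondrial genes did not share a direction. Of 17 tested, 7 were lower and 3 higher. Perm1, a muscle co-regulator of oxidative metabolism, Esrrg, an estrogen-related receptor, and Ppara, the fatty acid receptor, were at log2 ratios of -1.69, -1.26 and -1.22. Ppargc1a, the co-activator PGC-1alpha, was higher at a log2 ratio of 0.73. Esrrb had the highest ratio of the list, with 1.52 RPKM in the control library, 7.52 with miR-25, 0.904 after miR-106b and 1.01 after miR-93, from 45 and 267 reads in the first 2. Tfam, the activator of mitochondrial DNA transcription, was at a log2 ratio of -0.20. Of 26 sterol and fatty acid synthesis genes 5 were lower and 1 higher. Insig1, which holds back sterol synthesis, and Scd2, a fatty acid desaturase, were the extremes at log2 ratios of -1.06 and 1.10.

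Stress genes differed by program. The unfolded protein response and ATF4 list had 20 of 32 genes lower and 1 higher, with a median of -0.47. Hspa5, the main chaperone of the endoplasmic reticulum, was at 585 RPKM in the control library, 336 with miR-25, 496 after miR-106b and 412 after miR-93. Ddit3 and Atf3, transcription factors of the stress response, were at log2 ratios of -0.50 and -1.01. Dnajb9 was the lowest at -1.27, and its log2 ratios after miR-106b and miR-93 were -1.05 and -1.36. Canx, the lectin chaperone calnexin, was the 1 higher gene at a log2 ratio of 1.11, and it was higher with the other mimics too, at 0.97 and 0.78. Where all 3 mimics lie on 1 side, a departure of the shared control library and a response common to the mimics cannot be told apart.

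The p53 target list was the stress list with the highest median. Of 25 tested, 15 were higher and 4 lower, with a median of 0.75, against 0.28 after miR-106b and 0.16 after miR-93. Cdkn1a, the cell cycle inhibitor p21, had 9.61 RPKM in the control library, 31.5 with miR-25, 9.90 after miR-106b and 7.02 after miR-93. Tp53inp1, a p53-induced nuclear protein, had 23.5, 74.3, 28.9 and 31.0, and was among the 12 highest genes with a log2 ratio of 1.66. The miR-25 library was the highest of the 4 for both. Pro-apoptotic members were Bax at a log2 ratio of 1.04, Pmaip1 at 1.31 and the death receptor Fas at 1.43, and Mdm2, the ubiquitin ligase that limits p53, was at 0.79. The 4 lower members, Plk2, Btg2, Gadd45a and Perp, were at log2 ratios of -1.30, -0.95, -0.77 and -0.75. Log2 ratios after miR-93 were -1.48 for Plk2, -0.90 for Btg2 and -0.82 for Gadd45a, and Btg2 was at -0.22 after miR-106b. In the BCL2 family 4 of 13 genes were higher and 5 lower, and Bak1, which permeabilises the outer mitochondrial membrane together with Bax, was the lowest at a log2 ratio of -1.58.

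Other stress programs had members in both directions. Antioxidant and Nrf2 target genes had 4 of 32 higher (12.5%) and 5 lower (15.6%), both below the backgrounds of 19.3% and 22.6%. Gclc, which makes glutathione, was at a log2 ratio of 0.79 and Gpx3 at -0.65. Hypoxia response genes had 4 of 20 higher (20%) and 4 lower (20%), near the backgrounds. Adm, adrenomedullin, was the lowest of them at a log2 ratio of -1.40. Heat shock genes had 3 of 20 higher (15%) and 8 lower (40%). The small heat shock proteins of muscle Hspb6 and Hspb7 were at log2 ratios of -1.91 and -1.41, and the inducible Hspa1a and Hspa1b at 1.11 and 1.14. The last 2 are near-identical copies whose reads could have been split between them. Immediate early genes had 6 of 19 higher (31.6%) and 8 lower (42.1%), from log2 ratios of -1.07 for Myc to 0.86 for Jund. Interferon response genes had 10 of 20 lower (50%) and 2 higher (10%), with Usp18 at a log2 ratio of -2.25, Irf7 at -1.10 and Irf1 at 0.44.

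The hypertrophy and load list had 1 of 13 genes higher and 4 lower. Nppa, the atrial natriuretic peptide that is both a fetal gene and a load marker, had 1860 RPKM in the control library, 4425 with miR-25, 1607 after miR-106b and 261 after miR-93. Nppb, its B-type relative, had 636, 673, 578 and 104. With miR-25 the first was 2.38-fold higher and the second at a log2 ratio of 0.08. Fhl2, a LIM protein of the sarcomere, was the lowest at a log2 ratio of -1.40, and Ankrd1, a titin-associated stretch sensor, was at -0.48.

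**Figure D4:**
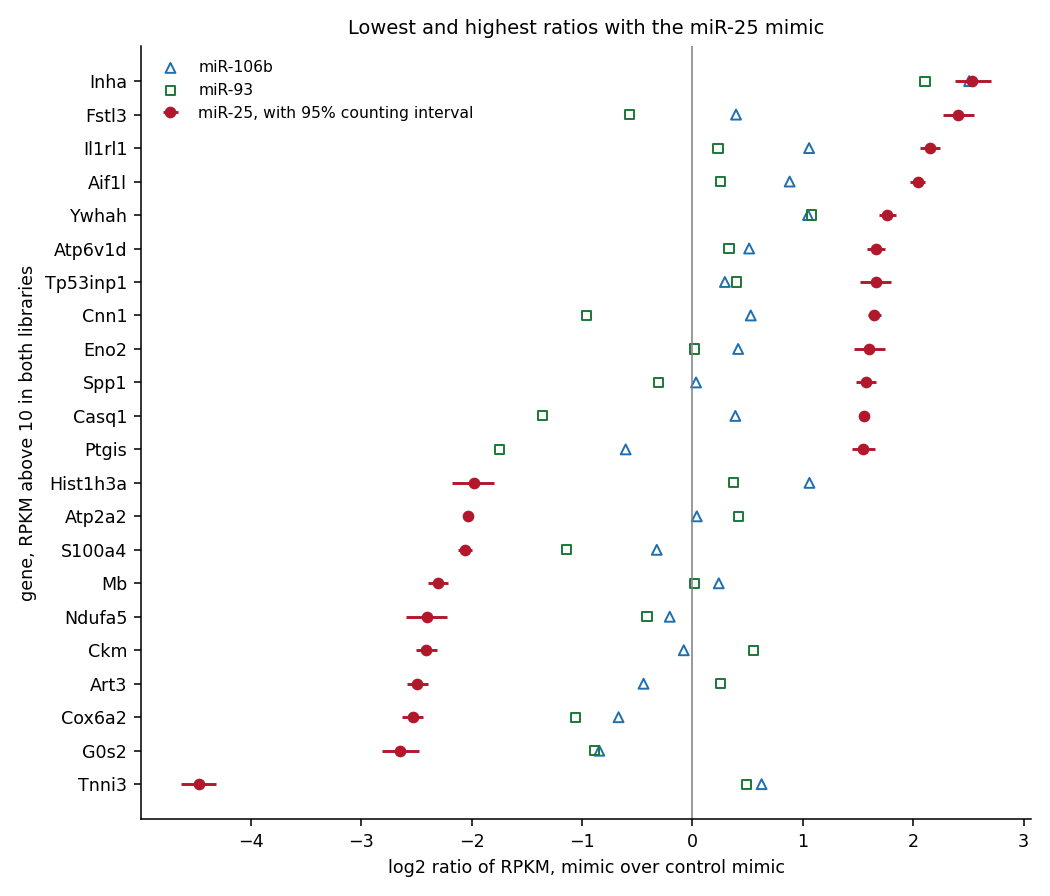
Log2 ratio of RPKM over the control library for 10 of the 12 lowest genes and the 12 highest genes with miR-25, among genes over 10 RPKM in both (red points with 95% counting intervals), with those of miR-106b (blue triangles) and miR-93 (green squares) beside them. Tnni3 lies at -4.47 with miR-25 and above 0 with the other mimics, and Inha lies at 2.54, 2.51 and 2.11.

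Among secreted factors, the highest ratios belonged to the activin system. Inha, the inhibin alpha subunit, had 11.0 RPKM in the control library, 63.8 with miR-25, 62.4 after miR-106b and 47.3 after miR-93, so the control library was the low one of the 4. Fstl3, a secreted protein that binds activins and related ligands, had 11.4, 60.4, 15.0 and 7.68, and there the miR-25 library was the high one. Inhba, the activin A subunit, was lower at a log2 ratio of -0.56. The list of TGF-beta superfamily ligands and their binding proteins as a whole had 6 of 18 genes higher and 6 lower. Grem1, a BMP antagonist, and Gdf15, a stress-induced ligand, were at log2 ratios of 0.91 and 0.91, and Gdf6, Bmp4 and Bmp6, BMP-type ligands, at -1.04, -0.96 and -0.66. Tgfb2 and Tgfb3, the 2 TGF-beta genes tested, were at log2 ratios of 0.37 and -0.25.

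Few cytokine genes were detected, and 11 of 27 listed once passed the filter. Spp1, osteopontin, had 23.6 RPKM in the control library, 70.2 with miR-25, 24.2 after miR-106b and 19.1 after miR-93. Il33 was higher at a log2 ratio of 1.13 from 67 and 176 reads, and Il1rl1, which encodes its receptor and, by splicing, a secreted decoy form, was the third highest gene with RPKM above 10, with 14.5 RPKM in the control library, 64.6 with miR-25, 30.2 after miR-106b and 17.1 after miR-93. Reads per gene do not separate the 2 forms. Ccl7 was the 1 lower cytokine at a log2 ratio of -1.15. Ccl20 and Lcn2 failed the filter because of their level with miR-25, at 5.32 and 4.22 RPKM in the control library and 0.653 and 0.660 with miR-25, from 14 and 16 reads.

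Growth factors and vasoactive peptides were lower in 11 of 29 cases and higher in 5. Hbegf, an EGF-type ligand, had 32.8 RPKM in the control library, 12.9 with miR-25, 17.3 after miR-106b and 5.80 after miR-93, below control with every mimic. Nov, a matricellular CCN protein, and Ptn, pleiotrophin, were at log2 ratios of -1.39 and -1.09, and Edn1, endothelin 1, had 29.2 RPKM in the control library and 14.5 with miR-25. Higher were Pdgfc at a log2 ratio of 1.32, Nppa, Fgf2 at 1.01, Gas6, a ligand of TAM receptors, at 0.85, and Mdk at 0.68. Vegfa, the main angiogenic factor, was at a log2 ratio of -0.02. Ptgis, prostacyclin synthase, which makes a secreted vasodilator lipid, was among the 12 highest genes, with 19.3 RPKM in the control library, 56.4 with miR-25, 12.7 after miR-106b and 5.75 after miR-93. In the insulin-like growth factor list 5 of 10 genes were lower and 2 higher, from log2 ratios of -1.85 for Stc2, a glycoprotein that curbs the protease of IGF-binding proteins, to 0.75 for Igfbp3.

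Of the Wnt list 4 of 20 genes listed once were tested. Sfrp1, a secreted Wnt antagonist, had 31.1 RPKM in the control library, 89.6 with miR-25, 23.6 after miR-106b and 19.6 after miR-93. Dkk3, of the Dickkopf family, had 25.4, 8.76, 32.1 and 43.3. The miR-25 library was the highest for the first and the lowest for the second. Wnt5a was at a log2 ratio of -1.07 and Sfrp2 at -0.34.

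Matrix genes were mostly lower. Of 39 collagens and other matrix proteins 27 were lower and 3 higher, with a median of -0.64 with miR-25, -0.40 after miR-106b and -0.42 after miR-93. Eln, elastin, had the lowest ratio of the list, with 52.3 RPKM in the control library, 4.74 with miR-25, 35.6 after miR-106b and 44.2 after miR-93. Col1a2, a chain of type I collagen, had 284, 77.6, 244 and 265, whereas Col1a1, its partner chain, had 60.1, 38.4, 63.6 and 66.8. The log2 ratios of the 2 chains with miR-25 were -1.87 (-1.91 to -1.84) and -0.64 (-0.69 to -0.60), so they differed by more than counting error. Lox and Loxl4, which crosslink collagen and elastin, were higher at log2 ratios of 1.20 and 1.20, as was Timp3, a matrix protease inhibitor, at 0.57. The list of matrix-modifying enzymes and inhibitors had 4 of 18 higher and 6 lower. Of the collagen and matrix list, 6 genes are also fibroblast markers, whose sum is given above, and Tcf21, a fibroblast transcription factor outside the matrix list, was at a log2 ratio of -1.62. The part of fibroblast number in the matrix values was not tested.

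Most genes of the S phase list and of the G2 and mitosis list were lower with miR-25. Of 37 S phase genes 35 were lower and 1 higher, with a median of -1.17, and of 41 G2 and mitosis genes 35 were lower and 0 higher, with a median of -0.95. The same lists had medians of 0.21 and 0.71 after miR-106b and of -0.03 and 0.40 after miR-93. Gins1, of the replicative helicase, was the lowest S phase gene at a log2 ratio of -2.05, and Rrm2, the regulated subunit of ribonucleotide reductase, had 49.6 RPKM in the control library, 15.0 with miR-25, 48.3 after miR-106b and 36.1 after miR-93. Tyms, thymidylate synthase, was the exception at a log2 ratio of 0.64. Ccne1 and Ccne2, cyclins of S phase entry, had log2 ratios of -0.67 and -0.92, and Ccnb1, a mitotic cyclin, -0.03. The D cyclins, which start the cycle in G1 and are in neither list, were not lower as a group. Ccnd1 had 18.6 RPKM in the control library, 28.4 with miR-25, 7.74 after miR-106b and 5.76 after miR-93, and Ccnd2 had 98.5, 196, 65.1 and 53.2. For both the miR-25 library was the highest and the other mimics were below control, with log2 ratios of 0.61 and 0.99 for miR-25, while Ccnd3 was at -0.13. Kif2c, a mitotic kinesin, was the lowest of the second list at a log2 ratio of -1.95.

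Promoters of the S phase list are shown because nearly all its members were lower. Windows from 250 bases before to 50 bases after the gene start (RefSeq, GRCr8) were searched on both strands for TTTGGCGC and TTTCCCGC, letters of the type that E2F factors bind in S phase promoters. A match was found for 10 of the 28 tested S phase genes with a window, 35.7%, and in 1.45% of all 33469 windows. There was none among 36 G2 and mitosis genes, none among 22 sarcomere genes and 1 among 42 respiratory chain genes. The 33469 windows were not limited to tested genes, so their share and those of the lists come from unlike sets. These shares rest on list membership and promoter letters alone, so they would be the same whatever the ratios with miR-25. Lower and other members of the S phase list were not compared. Matches of 4 of the lower genes, read along the strand of the gene with the match in capitals, were the following.
Gins1: ttaagcctaTTTGGCGCcaaagagag
Mcm6: gcgtctgctTTTGGCGCgaaattagc
Mcm5: aggttggttTTTCCCGCgaaagtcgg
Pole: catgagagcGCGCCAAAttttcccgg
The stretch printed for Gins1 lies at chr3:160184886-160184911 on the plus strand, that of Mcm6 at chr13:42404475-42404500 on the minus strand, that of Mcm5 at chr19:13488796-13488821 on the plus strand and that of Pole at chr12:52053648-52053673 on the minus strand. Log2 ratios with miR-25 were -2.05 for Gins1, -1.24 and -1.58 for the helicase subunits Mcm6 and Mcm5, and -1.71 for Pole, the catalytic subunit of DNA polymerase epsilon. Slbp and Tyms also carry a match, and their log2 ratios were -0.01 and 0.64. A match describes the letters of a window and no factor was measured at it.

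Genes that earlier literature names as targets of the miR-25 and miR-92 seed were taken as a list, without a search for sites. Of 25 tested, 15 were lower and 3 higher, with a median of -0.50 with miR-25, -0.09 after miR-106b and -0.01 after miR-93. Atp2a2 and Col1a2, described above, were the lowest. Itga5, an integrin of fibronectin receptors, had 46.3 RPKM in the control library, 14.4 with miR-25, 33.0 after miR-106b and 20.5 after miR-93. Kat2b, an acetyltransferase, and Mcu, the mitochondrial calcium uniporter, had log2 ratios of -1.17 and -0.92 with miR-25. Smad7, which restrains TGF-beta signalling, and Klf2, a transcription factor, were among the higher members at log2 ratios of 0.48 and 0.42. Lats2, Cdkn1c and Adam17 were between log2 ratios of 0.01 and 0.12. Members of this list were thus found in both directions.

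**Figure D5:**
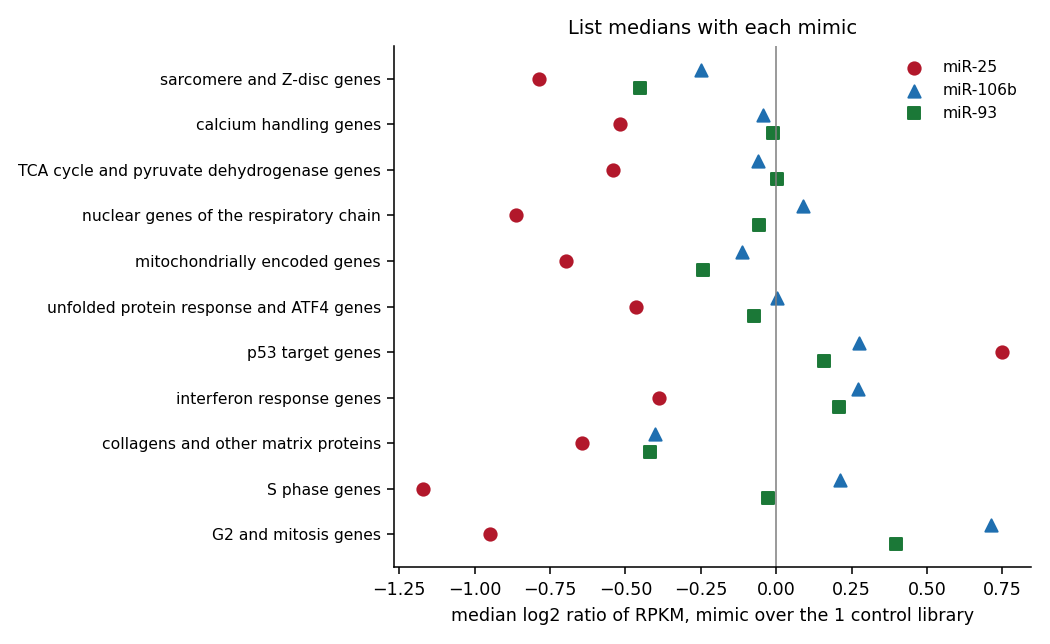
Median log2 ratio of RPKM over the control library for 11 gene lists with miR-25 (circles), miR-106b (triangles) and miR-93 (squares), all against the same 1 control library. The circle is the leftmost mark in every list but the p53 targets, where it is the rightmost at 0.75.

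Other leading genes belonged to none of these lists. Aif1l, an actin-bundling protein, had 32.3 RPKM in the control library, 133 with miR-25, 59.6 after miR-106b and 38.6 after miR-93. Ywhah, the 14-3-3 eta adaptor, had 23.5, 80.0, 48.6 and 49.5, above control with every mimic. Atp6v1d, a subunit of the lysosomal proton pump, was at a log2 ratio of 1.66. Among the lowest was S100a4, a small calcium-binding protein of fibroblasts and other motile cells, with 572, 137, 458 and 259 RPKM in the same order. Hist1h3a, a histone H3 gene whose reads may be shared with near-identical copies, was at a log2 ratio of -1.98. Of the 12 lowest genes 1 has no symbol beyond an identifier. Just 1 gene was above 10 RPKM in 1 library and at or below 1 in the other, which was Ano3, of the anoctamin family of membrane proteins. It was at 0.731 RPKM in the control library, 14.2 with miR-25, 0.951 after miR-106b and 0.760 after miR-93, from 99 control and 2311 miR-25 reads.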

How the data were processed

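RNA of 4 cultures was sequenced, 1 library for each mimic. Reads were trimmed by the authors and aligned with STAR 2.7 (version per the submitters' processing notes) to the Rnor 6.0 genome, and the authors rounded the gene counts and deposited RPKM values made with edgeR. The counting program is not given in the sources used here. Ratios of RPKM, miR-25 over cel-miR-67, were taken without a pseudocount for genes above 1.0 in both, and called past 1.3-fold. Whole reads were recovered from the steps of the RPKM values for all 15731 genes, of which 654 were scaled back by a common factor, and gave exact Clopper-Pearson intervals (95%). The steps were tested on simulated data. Library sizes behind the RPKM values were not whole numbers, and whether they hold a normalisation factor is not known. The members and the 40 gene lists were chosen with earlier results of these data known. Symbols listed more than once (176 symbols, 363 rows) were left out of lists and of named genes.

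Genes named are the 12 highest and 12 lowest ratios above 10 RPKM in both libraries, list members (extremes and best known), genes the study names in its RNA-seq results, and genes above 10 RPKM in 1 library and at or below 1 in the other. Of those the study names, a selection is given. A few selected genes are not reported here. Lists were described by counts and medians, with no set test. Alternatives were other RPKM and fold cutoffs, pseudocounts of 0.1 and 1, centring, and 2 other scalings. Sites in 3′UTRs were not analysed here. Tables were handled with pandas 2.3.3 and numpy 2.4.6, intervals came from scipy 1.17.1 and plots from matplotlib 3.10.9, all under Python 3.11.15.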

Additional observations from a re-analysis of the deposited data

How the results depend on the processing

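No paired analysis was possible because each mimic has 1 library, so there was also none to leave out. With RPKM above 10 in both libraries 619 of 4481 genes were higher and 977 lower, and with no filter and a pseudocount of 0.1, 3464 and 3847 of 15731. A fold cutoff of 1.5 gave 1189 and 1538 genes, and a cutoff of 2 gave 360 and 561. Scaling to reads on listed genes gave 3284 higher genes. Of the 39 list medians, 9 changed sign under 1 of the 7 alternatives. At RPKM above 10 these were ion channels (0.138, 4 genes left), Wnt genes (1.53, 1 gene left) and insulin-like growth factors (0.0446). Under scaling to reads on listed genes these were sterol synthesis (0.0414), hypertrophy (0.103), heat shock (0.0439), immediate early genes (0.00035), growth factors (0.0556) and matrix-modifying enzymes (0.00921), all with medians above -0.15 and below 0 as deposited. That scaling also moved cardiac transcription factors to 0.161, fatty acid genes to -0.102, unfolded protein response genes to -0.317 and G2 and mitosis genes to -0.8, and a pseudocount of 1 moved the last to -0.839. RPKM above 10 left 1 interferon gene at -0.874 and 7 G2 and mitosis genes at -0.761, and RPKM above 2 left 1 macrophage gene at -0.0776. Of 3635 values of single genes under 5 alternatives, 493 left the counting interval of the deposited ratio, 431 of them under scaling to reads on listed genes, and 0 of the genes past the cutoff changed sign. The planned count of seed sites in 3′UTRs was not run, since no genome of the build was used here. Depth limits genes with few reads, and no alternative stands in for a second library.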

Other observations

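Gene families were also read from shared symbol letters, for 149 families with 8 or more tested genes, after their values were seen. The genes of intraflagellar transport, which build the primary cilium, had the highest median of all these families with miR-25. Of 14 tested Ift genes 11 were higher and 0 lower, against backgrounds of 19.3% and 22.6%, with a median log2 ratio of 0.82. Ift122 was at 1.85 RPKM in the control library, 7.10 with miR-25, 1.82 after miR-106b and 2.04 after miR-93. Ift57 had 1.83, 6.62, 1.78 and 2.67 in the same order. Ift88, a subunit without which cilia do not form, had 1.04, 2.51, 1.10 and 1.41, with its control level close to the filter. With miR-25, miR-106b and miR-93, Ift81 was at log2 ratios of 0.98, 0.46 and 0.92, and Ift80 at 0.82, -0.31 and -0.38. In that order Ift22 was at 1.66, 0.56 and 0.54, Ift140 at 1.05, 0.40 and 0.40, and Ift43 at 0.73, -0.30 and -0.65. Some Ift genes were thus above control with every mimic, and others with miR-25 only. The Bbs genes, whose products carry membrane cargo into cilia, had the second highest median, 0.51, with 5 of 8 higher and 0 lower. Bbs2 and Bbs1 were at log2 ratios of 1.14 and 1.04. Cilia themselves were not measured.

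Histone genes had the lowest median of the families, -1.32 over 21 genes. Of 35 tested rows, those with symbols listed more than once included, 32 were lower and 0 higher with miR-25, with a median of -1.38. Hist1h1c, a linker histone whose mRNA is made outside S phase as well, was at a log2 ratio of -0.68, and Hist1h2ao, a core histone gene, at -2.09. After miR-106b and miR-93, Hist1h1c was at log2 ratios of 0.29 and 0.40 and Hist1h2ao at 0.89 and 0.32. Copies of histone genes are near identical and their reads may have been split between them. Cytosolic ribosomal protein genes were lower in 47 of 89 cases and higher in 4, with a median of -0.43, and mitochondrial ribosomal protein genes lower in 35 of 78 and higher in 4, with -0.27. Ribosomal protein genes and most of the 21 histone genes are short. All tested genes under 500 bases had a median of -0.36 with miR-25, 0.18 with miR-106b and -0.05 with miR-93. The 514 tested genes above 100 RPKM in the control library had a median of -0.38 with miR-25. The part of length and level in the ribosomal and histone values was not tested. The Arhgef genes, activators of small GTPases that steer actin, were higher in 8 of 16 cases and lower in 0, with Arhgef25, a muscle-expressed RhoA activator, highest at 1.51.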
